A study of Schizosaccharomyces pombe with 4 samples.

Results

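Centromere 2 of the fission yeast Schizosaccharomyces pombe was described here from the 201 genomic probes that the array places on chromosome 2 between positions 1585000 and 1665000, out of 41551 genomic probes in all. The rule for the members used the contig and position in the probe names and no measured value. Earlier results of these data were known when the region was chosen. Histone H3 trimethylated at lysine 9 (H3K9me3) had been mapped by chromatin immunoprecipitation on 2-colour tiling arrays in 4 strains, with 1 array per strain. Titles name the strains as WT, IRD1, IRD2 and IRD3, and all 4 titles carry the further tag REIID; neither IRD nor REIID is spelled out in the labels, and no allele is given. All cultures were in exponential growth at 32 °C without synchronisation and were fixed in 3% paraformaldehyde. Chromatin was sheared to fragments of 400 to 600 bp, precipitated with an Abcam antibody against H3K9me3, and amplified by random-primed PCR. Precipitated DNA carried Cy5 and whole-cell extract DNA, here called input, carried Cy3.

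Fission yeast centromeres hold a central core, where the histone H3 variant CENP-A (Cnp1 in this yeast) replaces much of H3 and the kinetochore is built. The core is flanked by inverted innermost repeats and then by outer repeats of the dg and dh type. The outer repeats are packed as heterochromatin: the methyltransferase Clr4 methylates lysine 9 of H3, RNA interference guides it there, and Swi6, a heterochromatin protein of the HP1 family, binds the mark. Clusters of tRNA genes lie at edges of this heterochromatin and are known as barriers to its spread.

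Every value below is a log2 ratio of precipitated over input signal, with the median genomic probe of its array at 0, unless it is called an input level. Because each strain has 1 array, there is no test, and no p-value is given for any difference between strains. Ranges in parentheses are quartiles over probes and describe spread along the DNA, not error between cultures. A ratio was obtained for 201 of the 201 probes with WT, for 189 with IRD1, for 200 with IRD2 and for 195 with IRD3. For 182 probes all 4 arrays gave one. Those left out had been marked as outlier spots, and none of them lay in the repeats. No probe of the region was saturated, and both channels of every probe were well above background. Probe-to-probe noise, estimated from neighbouring probes outside heterochromatin, had an SD of 0.27 for WT, 0.30 for IRD1, 0.26 for IRD2 and 0.26 for IRD3. Probe names also carry suffixes that the files do not explain; 48 of the 201 names contain an f and 23 contain an m.

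In all 4 strains H3K9me3 was high in blocks of probes on both sides of the centromere and low in the middle. These blocks, called repeat blocks below, were marked by the ratio and not by sequence. Runs where the 5-probe running median of the 4-array mean reached 3 marked 4 blocks with 45 probes, spanning 42.3 kb from 1603200 to 1645500. The left outer block ran from 1603200 to 1610700 with 20 probes, and the left inner block from 1614900 to 1620000 with 12 probes. The right inner block ran from 1632300 to 1635000 with 4 probes, and the right outer block from 1640400 to 1645500 with 9 probes. Stretches with no probe separate the outer from the inner blocks by 4.2 kb on the left side and by 5.4 kb on the right side, so the level there was not measured. Further stretches with no probe, of 1.8 kb and 2.4 kb, lie within the right inner and the right outer block. Between the inner blocks lay a gap of 12.3 kb. For comparison, centromere 1 spanned 32.7 kb in 2 blocks around a gap of 12.6 kb, and centromere 3 spanned 73.5 kb in 4 blocks around a gap of 14.1 kb.

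**Figure D1:**
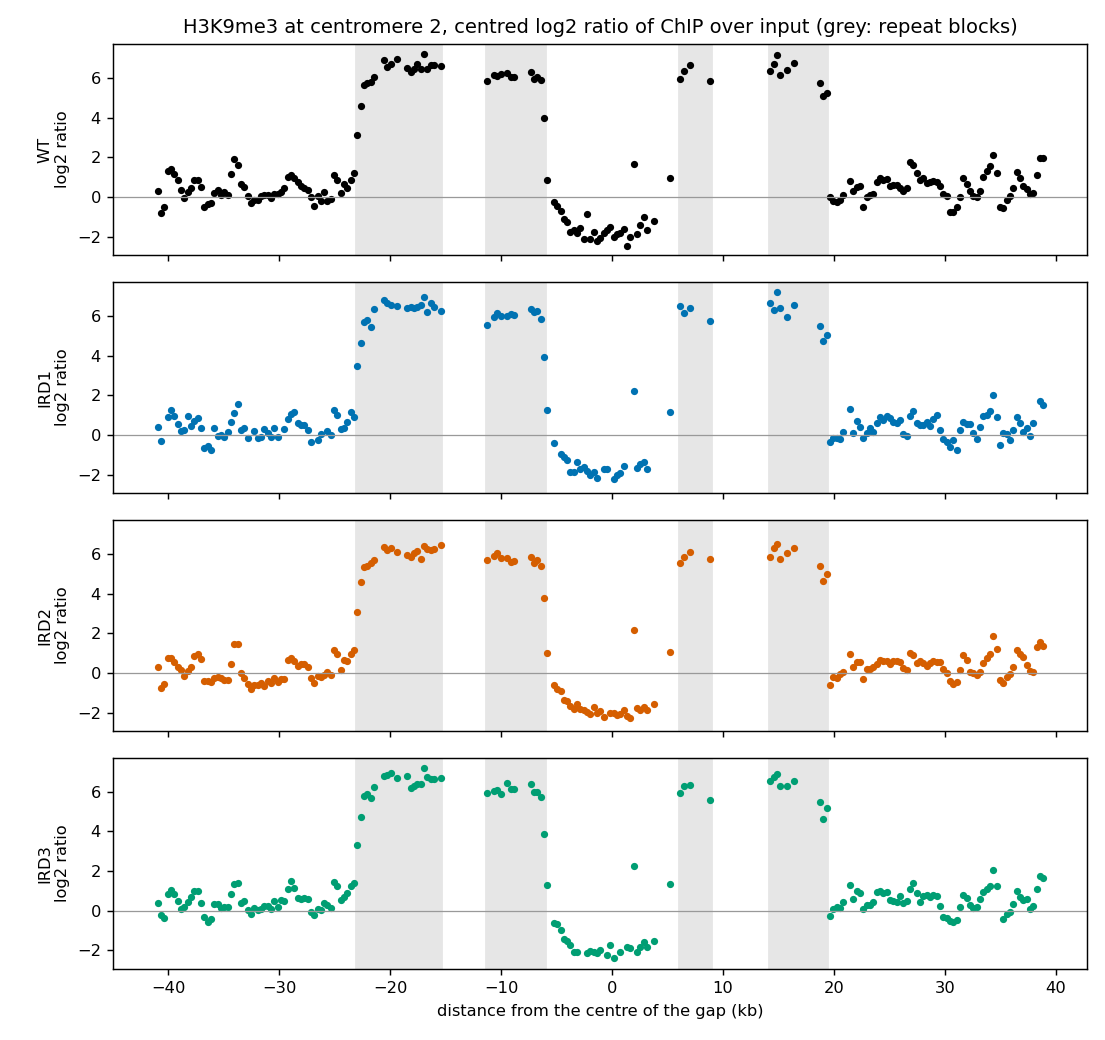
Centred log2 ratio of precipitated over input DNA (vertical axis) for each probe against distance from the centre of the gap in kb (horizontal axis), 1 panel per strain; points are probes and grey bands are the repeat blocks. In each panel the block medians lie between 5.83 and 6.27 and the gap medians between -1.83 and -1.65, with 1 gap probe above 1.6.

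The repeat blocks were chosen by this ratio, so their level is a description. The WT median was 6.25 (5.89 to 6.59), which is 76.3 times the array median. The medians were 6.24 for IRD1, 5.83 for IRD2 and 6.27 for IRD3. The height depends on the normalization: after loess within each array the block medians were 3.82 for WT, 3.69 for IRD1, 1.31 for IRD2 and 3.31 for IRD3. The block median stood above the gap median by 7.91 for WT, 7.93 for IRD1, 7.65 for IRD2 and 8.10 for IRD3. Between the repeats and the gap the 4 arrays therefore spanned 201-fold in IRD2 to 274-fold in IRD3.

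Within the repeats the outer blocks were higher than the inner ones on all 4 arrays. Which repeat type each block holds was not tested. The outer median was 6.47 for WT, 6.39 for IRD1, 6.02 for IRD2 and 6.41 for IRD3. The inner median was 6.07 for WT, 6.09 for IRD1, 5.70 for IRD2 and 6.01 for IRD3. The excess of outer over inner ranged from 0.31 in IRD1 to 0.41 in WT, so it had the same direction on each array. It ran along with the probe suffix: all 16 inner probes carry an f, whereas 20 of the 29 outer probes carry an m. The m probes of the blocks had medians of 6.62, 6.49, 6.19 and 6.66 in WT, IRD1, IRD2 and IRD3, and the f probes had 6.05, 6.04, 5.68 and 5.97. Position and probe class cannot be told apart here. The 5 block probes with neither letter, all in the outer blocks and near the outer borders, had medians of 5.76, 5.46, 5.38 and 5.49 in the same order.

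The highest repeat probe in WT and IRD3 was 1609200 in the left outer block, at 7.24 and 7.20. In IRD1 and IRD2 it was 1641000 in the right outer block, at 7.19 and 6.52. The lowest repeat probe on every array was 1603200 at the left border, at 3.16, 3.46, 3.09 and 3.30 in WT, IRD1, IRD2 and IRD3. The ratios of the 45 block probes were correlated between arrays, with Pearson's r from 0.93 (IRD1 with IRD2) to 0.98 (WT with IRD2). The 45 probes share each array's hybridisation and are not replicates.

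The input channel shows the amount of DNA each probe reads, with or without the mark. Over the repeat blocks the input level relative to the array median was 0.19 (-0.16 to 0.35) for WT, 0.10 for IRD1, 0.27 for IRD2 and 0.03 for IRD3. These quartiles overlap 0 in WT, so the height of the repeats was carried by the precipitated channel, whose block median was 6.43 in WT. No probe of the region lost its input in any strain.

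**Figure D2:**
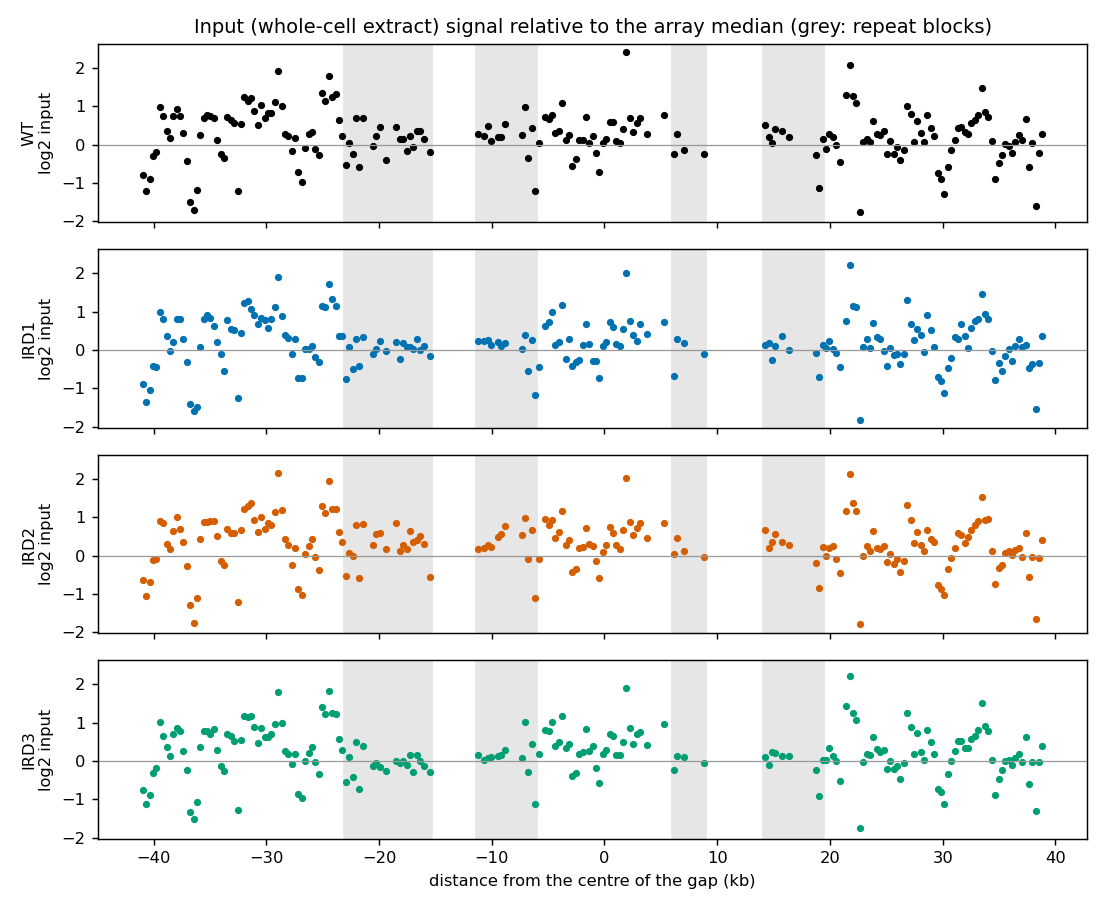
Input level (log2 of whole-cell extract signal relative to the array median, vertical axis) for each probe against distance from the centre of the gap in kb (horizontal axis), 1 panel per strain; grey bands are the repeat blocks. Block medians lie between 0.03 and 0.27 on the 4 arrays, and the highest gap probe has an input level of 1.90 to 2.41.

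The reference genome was used only to learn how the repeats are arranged, since its build (RefSeq, ASM294v3) is not that of the array: the last array probe on chromosome 3 stands at 2453700, past the reference length of 2452883. In that reference, centromere 2 lies in 51.49 kb without protein-coding genes, between rpb1, which encodes the largest subunit of RNA polymerase II, and yox1, which encodes a homeodomain repressor of cell-cycle genes. Its arms are inverted copies of each other: 11.723 kb at 99.872% identity and 4.136 kb at 99.758% identity. The inner ends of these inverted repeats lie 6.804 kb apart in the reference, whereas the gap between the blocks on the array is 12.3 kb. How far the blocks match the repeats was not tested. Copies at 95% identity or more covered 92.3% of the longer arm on chromosome 1 and 74.7% on chromosome 3. A probe in the repeats can therefore read several copies, and how much of its signal came from centromere 2 cannot be told apart. The same stretch holds 27 tRNA genes, of which 12 lie left of the inverted repeats, 9 right of them and 6 between their outer ends.

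The central gap was depleted below the array median on all 4 arrays. Its median over probes with a ratio was -1.65 (-1.85 to -1.06) for WT, -1.69 for IRD1, -1.82 for IRD2 and -1.83 for IRD3. The 22 gap probes that have neither f nor m, leaving out 1 high probe described below, had medians of -1.81, -1.73, -1.95 and -2.06 over the 22, 18, 21 and 17 of them with a ratio in WT, IRD1, IRD2 and IRD3. Mitochondrial probes, whose DNA carries no histones, had medians of -1.66, -1.74, -1.98 and -2.20. The core of the gap stood 0.15 below the mitochondrial level in WT, and 0.01, 0.04 and 0.14 above it in IRD1, IRD2 and IRD3. The mitochondrial probes had median input levels of 4.22 to 4.37 on the 4 arrays, against 0.14 to 0.39 for these gap probes. The ratios were thus read at unlike intensities, and the effect of that was not tested.

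A single probe at 1628100 broke the depletion, at 1.65 for WT, 2.23 for IRD1, 2.16 for IRD2 and 2.26 for IRD3. It was the highest gap probe on each array, while its neighbours 1627800 and 1628400 lay at -2.03 and -1.84 in WT. Its input level was also high, at 2.41 in WT and between 1.90 and 2.02 in the IRD strains, against a median of 0.29 over the gap in WT. Whether this probe reads copies elsewhere was not tested. The probe at 1623900 set WT apart from the IRD strains: it stood at -0.86 in WT and at -1.80, -1.98 and -2.12 in IRD1, IRD2 and IRD3. Its input level did not move in step, at 0.13 in WT and at -0.27, 0.20 and 0.18. The neighbours 1623600 and 1624200 were at -2.13 and -2.12 in WT, so in WT 1623900 was the high value of its surroundings.

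The edges of the gap were not alike. On the left the level fell across several probes that carry an f, from 5.89 at 1619700 through 3.96 at 1620000, 0.89 at 1620300 and -0.27 at 1620900 to -1.77 at 1622400 in WT. The IRD strains followed the same slope, with 3.91, 3.76 and 3.86 at 1620000 in IRD1, IRD2 and IRD3, and 1.25, 0.99 and 1.30 at 1620300. On the right the last block probe, 1632300, stood at 5.96, 6.49, 5.55 and 5.92 in WT, IRD1, IRD2 and IRD3. The next probe, 900 bp inward at 1631400, stood at 0.96, 1.15, 1.06 and 1.36. The wide spacing of probes on the right leaves the shape of that edge unmeasured.

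The outer borders differed more. The left border was graded: in WT the level was 0.88 at 1602600, 1.24 at 1602900, 3.16 at 1603200, 4.60 at 1603500 and 5.68 at 1603800. The largest drop beside the border, from 1603200 to 1602900, was 1.92 for WT, 2.54 for IRD1, 1.96 for IRD2 and 1.90 for IRD3. The right border was abrupt. The last block probe, 1645500, stood at 5.27, 5.02, 5.01 and 5.16 in WT, IRD1, IRD2 and IRD3, and the next, 300 bp outward at 1645800, at -0.02, -0.34, -0.59 and -0.27. That is a step of 5.29 to 5.60, or 39.1-fold in WT to 48.5-fold in IRD2, over less than the length of a sheared fragment. The borders were read by unlike probe classes. On the left the graded block probes 1603200, 1603500 and 1603800 carry an f, and 1602900 and 1602600 outside carry neither f nor m. On the right the last block probes, 1644900, 1645200 and 1645500, carry neither letter, and the first outside probe, 1645800, carries an f. Border shape and probe class cannot be told apart here. The positions of the borders were the same on all 4 arrays. At running-median thresholds of 2 and of 3, each array's enriched span began at 1603200 and ended at 1645500. At a threshold of 1 it began at 1602900 in WT, IRD1 and IRD2 and at 1602600 in IRD3, and it again ended at 1645500.

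**Figure D3:**
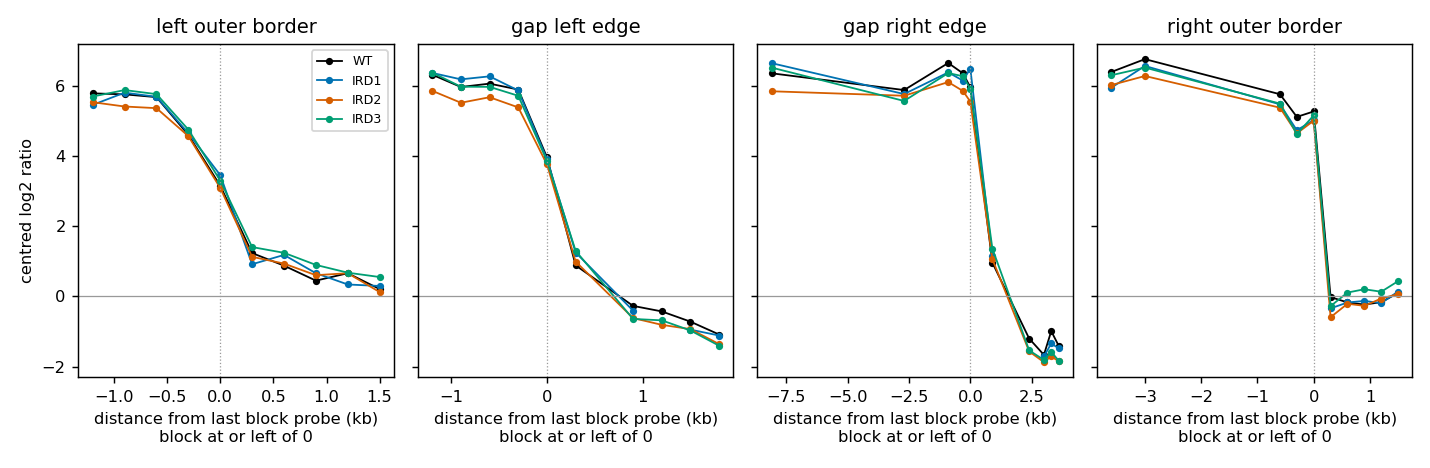
Centred log2 ratio (vertical axis) of the 5 probes inside and the 5 probes outside each outer border and each edge of the gap, against distance from the last block probe in kb (horizontal axis, the block at or left of 0), 1 line per strain. The right outer border falls by 5.29 to 5.60 within 300 bp on the 4 arrays, while the left outer border falls by 1.90 to 2.54 over the same distance.

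Just outside both borders lie runs of probes whose names carry an f or m, 10 on the left from 1599600 to 1602300 and 9 on the right from 1645800 to 1648500. Set against each other at a shift of 46.2 kb, chosen as the best of those tried, 9 pairs of these probes matched in input with a mean absolute difference of 0.11 and in ratio with one of 0.13. The correlation over the 9 pairs was 0.99 for input and 0.94 for ratio. In the reference a same-strand repeat of 3.19 kb at 99.906% identity flanks the inverted repeats on both sides, and each copy holds 8 tRNA genes. Its copies start 45.338 kb apart there, which differs from the best shift on the array. At a shift of 45.3 kb the array probes did not match, with correlations of -0.11 for input and 0.12 for ratio over 6 pairs, and whether the array match is this repeat was not tested. Probe sequences were not used here, so which of these sides carried a value cannot be told apart.

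Beyond the borders the ratio was far below the repeats, and its median was above that of all chromosome probes outside the blocks. The 124 flank probes had medians of 0.43, 0.36, 0.29 and 0.47 in WT, IRD1, IRD2 and IRD3. That wider set had -0.02 on each array. It leaves out the whole region described here, flanks included, and the spans of centromeres 1 and 3. The quartiles overlapped, at 0.05 to 0.85 for the flanks and -0.50 to 0.63 for the wider set in WT. Among the flank probes 16.9%, 11.9%, 8.87% and 18.7% reached 1. Over chromosome probes outside the blocks those shares were 14.5%, 9.49%, 13.8% and 11.6%. The highest flank probe was 1660500, at 2.14 for WT, 2.01 for IRD1, 1.86 for IRD2 and 2.06 for IRD3, which is alike in all 4 strains. On the left the probes 1592100 and 1592400 formed a small peak, at 1.92 and 1.61 in WT and between 1.10 and 1.57 in the IRD strains.

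Next, each IRD strain was set against WT. These 3 comparisons share the WT array, so a deviation of that array enters all of them. Of the probes measured on both arrays, 0 of 189 differed by at least 2-fold in either direction in IRD1. Over all probes, 0.595% were higher and 0.0996% lower at that size in IRD1. In IRD2, 0 of 200 were higher and 1 was lower, against 0.536% and 0.323% over all probes. In IRD3, 0 of 195 were higher and 1 was lower, against 0.657% and 0.112%. The lower probe was 1623900 in the gap in both strains, at -1.12 and -1.26. No 1.5 kb window of the region had all 3 IRD strains at least 2-fold from WT on the same side, out of 39 windows measured in all strains. Over all windows 0.297% were higher and 0.0248% lower in all 3.

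Over the repeat blocks IRD1 and IRD3 lay close to WT. For IRD1 the block probes differed from WT by a median of -0.07 (-0.26 to 0.05), with 28 of 45 probes lower. It was -0.04 (-0.12 to 0.10) in IRD3, with 26 of 45 lower. In IRD2 it was -0.41 (-0.50 to -0.31), and 45 of 45 probes were lower. Of the chromosome probes outside the blocks, 61.3% stood below WT for IRD1, 53.4% for IRD2 and 61.8% for IRD3. The repeat counts of IRD1 and IRD3 lie near those shares. The IRD2 shift was alike in the outer blocks (-0.41) and the inner blocks (-0.42). Its precipitated channel was lower by a median of 0.23 and its input higher by 0.16, so both channels moved. Mitochondrial probes, whose DNA carries no histones, were also lower in IRD2, by a median of 0.34 and at 55 of 58 probes. Their precipitated channel was lower by 0.20 and their input higher by 0.12. Whether the IRD2 shift is particular to heterochromatin was not tested. The repeats of centromeres 1 and 3 differed from WT by -0.43 and -0.48 in IRD2, by -0.09 and -0.13 in IRD1, and by 0.01 and -0.08 in IRD3. When each array was scaled to the mating-type region and the repeats of centromeres 1 and 3, the IRD2 difference at centromere 2 was 0.047. Copies of the longer centromere 2 arm lie on chromosomes 1 and 3, whose centromere repeats also stood lower in IRD2. This setting therefore gives the difference relative to other heterochromatin only. It cannot tell whether the repeats as a whole were lower in IRD2. After loess within each array the IRD2 difference was -2.78. Then 44 of 200 probes of the region were at least 2-fold lower in IRD2, with 0 higher. Over all probes, 2.15% were then lower and 0.247% higher at that size; the IRD3 repeats then differed from WT by -0.46. Over the 5 block probes with neither f nor m the IRD1 difference was -0.29.

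The largest falls in the IRD2 repeats were at 1606800, from 6.99 in WT to 6.11, and at 1609200, from 7.24 to 6.41. Their input levels were higher in IRD2, 0.17 against -0.39 and 0.36 against -0.07. In IRD1 and IRD3 the probe 1606800 stood at 6.50 and 6.68, and 1609200 at 6.93 and 7.20. The largest rise in the IRD1 repeats was at 1632300, the edge of the gap, from 5.96 to 6.49, with an input level of -0.66 against -0.26.

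In the gap the median difference was -0.05 (-0.14 to 0.12) for IRD1, -0.21 (-0.31 to 0.10) for IRD2 and -0.25 (-0.35 to 0.10) for IRD3. The upper quartile of each lies above 0, so part of the gap was not lower. Over the alternative settings the median ranged from -0.11 to 0.02 for IRD1, from -0.35 to -0.15 for IRD2 and from -0.36 to -0.16 for IRD3. The gap also held 6 of the 12 outlier spots left out in IRD1, 1 of 1 in IRD2 and 5 of 6 in IRD3. On histone-free DNA the fall was larger: mitochondrial probes of IRD1 had a median difference of -0.19, with 43 of 58 lower. IRD2 had -0.34 there (55 of 58 lower), and IRD3 had -0.57 (58 of 58 lower). Those probes were read at higher input levels than the gap. Whether the gap differences reflect the mark was not tested. The gaps of centromeres 1 and 3 differed from WT by -0.40 and -0.40 in IRD1, by -0.43 and -0.34 in IRD2 and by -0.50 and -0.38 in IRD3. Within the gap of centromere 3, 11 of 32, 11 of 33 and 11 of 30 probes were at least 2-fold lower than in WT in IRD1, IRD2 and IRD3. At centromere 2 there were 0 of 26, 1 of 31 and 1 of 27. Over all probes the shares were 0.0996%, 0.323% and 0.112%. In the centromere 3 gap 10 probes reached 1 in WT and 0 did in each IRD strain, and all of these counts share the WT array. With 1 array per strain the difference between centromeres was not tested.

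**Figure D4:**
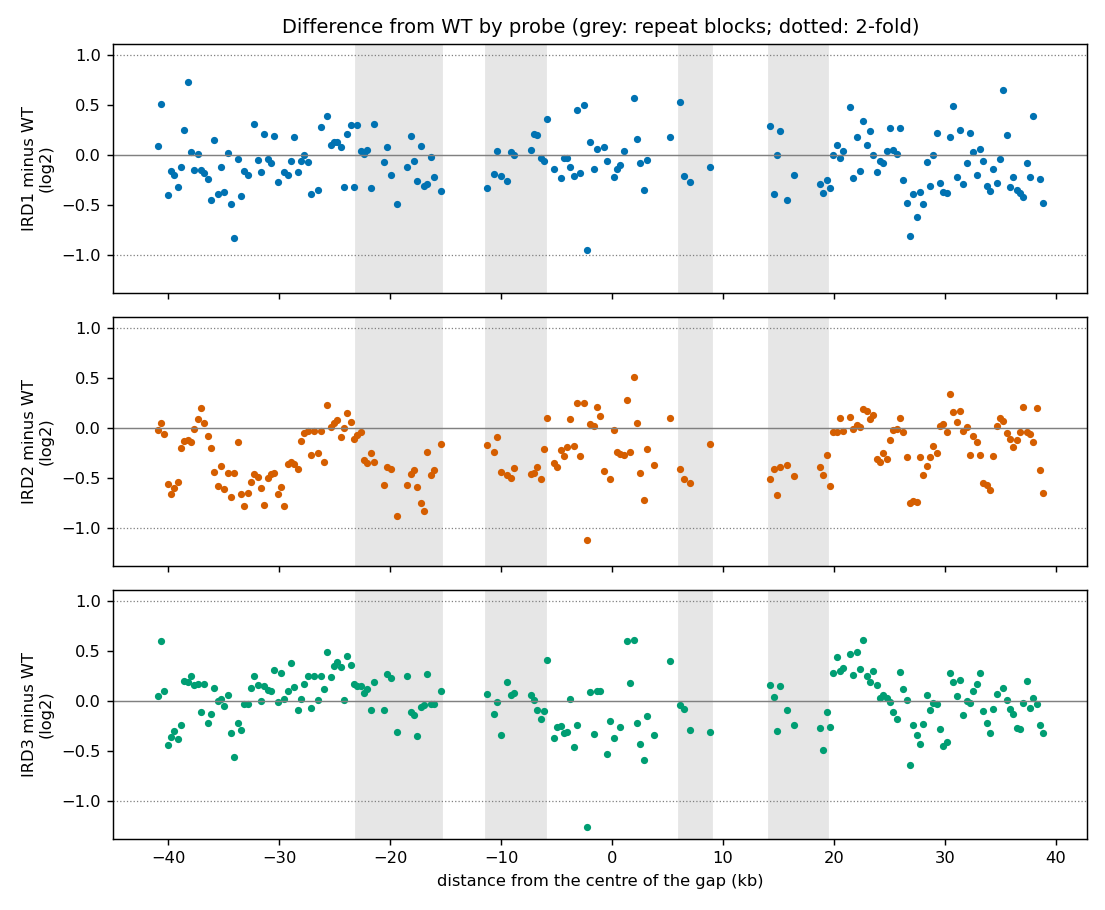
Difference of each IRD strain from WT (log2, vertical axis) for each probe against distance from the centre of the gap in kb (horizontal axis), 1 panel per strain; grey bands are the repeat blocks and dotted lines mark 2-fold. All 45 block probes lie below 0 in IRD2, and 1 gap probe lies below -1 in IRD2 and IRD3.

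The probes just outside the borders stood above WT in IRD3. Over the first 5 outside probes the IRD3 difference was 0.34 (0.17 to 0.36) on the left, with 5 of 5 higher, and 0.30 (0.28 to 0.34) on the right, with 4 of 5 higher. IRD1 had 0.09 and -0.00, and IRD2 had 0.00 and -0.04. The order of IRD1 and IRD3 on the left turned over in other settings: after loess the left values were 0.36 for IRD1 and 0.11 for IRD3, and with blocks from a threshold of 4 they were 0.21 and 0.17. Over both f or m runs beside the borders, chosen after the values were seen, the IRD3 difference was 0.33 (0.24 to 0.41) and 18 of 19 probes were higher; after loess it was 0.18. It came from the precipitated channel, which was higher by 0.37, with the input at 0.04. The runs hold the 9 pairs that matched at a shift of 46.2 kb, so left and right cannot be counted as separate readings. Among chromosome probes outside the blocks, 38.2% were higher in IRD3 than in WT. The remaining 104 flank probes had a difference of 0.02 in IRD3, and f or m probes of the chromosomes outside blocks had -0.07. An example is 1647600 in the right run, at 0.83 in WT and 1.30 in IRD3, but also at 1.32 in IRD1 and 0.94 in IRD2. At 1647900 the values were 0.32 for WT, 0.10 for IRD1, 0.32 for IRD2 and 0.58 for IRD3. From 1646100 to 1650900, 16 probes in a row were higher in IRD3 than in WT. Runs at least as long numbered 10 among the 38333 chromosome probes outside the blocks with a difference.

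In IRD2 the left flank lay further below WT than the right flank did. The left flank differed from WT by -0.30 (-0.54 to -0.03), with 49 of 60 probes lower. The right flank differed by -0.04 (-0.29 to 0.03), with 43 of 64 lower. Of the chromosome probes outside the blocks, 53.4% were lower in IRD2. As means over probes the differences were -0.29 on the left and -0.13 on the right. From 1589700 to 1600200, the longest unbroken run of flank probes below WT and so chosen by its values, 36 of 36 probes were lower in IRD2 by a median of 0.45. Their medians were 0.19 for WT, 0.22 for IRD1, -0.26 for IRD2 and 0.28 for IRD3. The precipitated channel was lower in IRD2 there by 0.29, and the input higher by 0.07. Among the 39805 chromosome probes outside the blocks with a difference, 10 runs of probes lower in IRD2 were at least this long. The longest of those runs had 48 probes.

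At the lower size of 1.5-fold, 24 of 200 probes were lower in IRD2 and 0 were higher, against 4.27% and 2.04% over all probes. Of these 24, 12 lay in the left flank, 5 in the repeats, 5 in the right flank and 2 in the gap. In IRD1, 4 of 189 were lower and 2 higher, against 3.82% and 2.56%. In IRD3, 3 of 195 were lower and 4 higher, against 1.19% and 1.33%. Windows of 1.5 kb lower by at least 1.5-fold numbered 3 of 40 in IRD2, against 2.25% of all windows.

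Among the IRD strains, the repeats of IRD1 and IRD3 were 0.33 and 0.37 above those of IRD2, with 40 and 43 of 45 probes higher. IRD1 and IRD3 differed by -0.01 there. Of the chromosome probes outside the blocks, 44.2% were higher in IRD1 than in IRD2, and 43.7% were higher in IRD3 than in IRD2. Over the f or m runs beside the borders IRD3 was 0.31 above IRD2, with 19 of 19 probes higher.

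**Figure D5:**
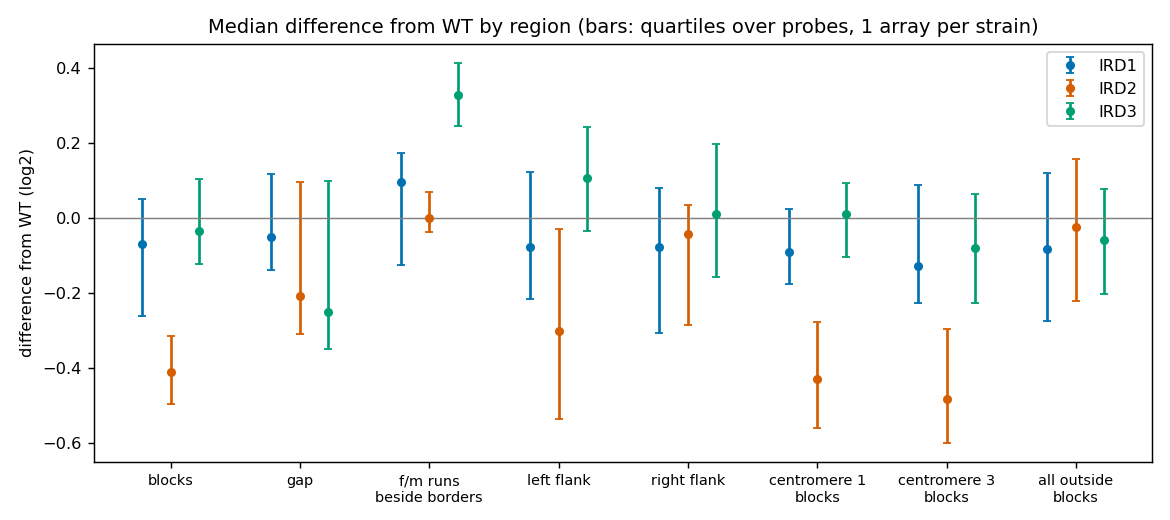
Median difference from WT (log2, vertical axis) over probes of centromere 2, its flanks, the repeats of centromeres 1 and 3 and all chromosome probes outside blocks (horizontal axis), 1 colour per IRD strain; bars are quartiles over probes of 1 array per strain. IRD2 lies at -0.41, -0.43 and -0.48 in the repeats of centromeres 2, 1 and 3, and IRD3 lies at 0.33 in the f or m runs beside the borders.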

How the data were processed

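Per the file headers, spot intensity was extracted with Agilent Feature Extraction 12.0.3.1, on 1 slide and in 1 scan. The deposited files hold processed intensity per channel, already background-subtracted and dye-normalized per the file headers, median intensity, and each spot's log10 ratio (Cy5 to Cy3), which no result used. The deposited value table of the authors holds the linear ratio of Cy5 to Cy3; it served as an alternative.

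Here log2 of red over green processed signal was centred on each array's median genomic probe. The 1417 control spots, flagged outliers and probes with input not well above background were left out. Blocks were runs with a 5-probe running median of at least 3, runs up to 3 kb apart joined. Scripts used Python 3.11.15, numpy 2.4.6 and pandas 2.3.3, limma 3.58.1 in R 4.3.3 for loess and normexp, and blastn 2.17.0 for repeats; block finding was tested on simulated data. Strains were taken from titles, because in the labels of IRD1 and of IRD3 the strain name stands in the antibody field and the antibody in the genotype field; that strain name is the one in the title.

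Named probes are the 5 on each side of each border and gap edge, the extremes of the gap, the 5 largest rises and falls per strain, and probes without input; the other probes were chosen after values were seen. The members and lists were chosen with earlier results of these data known. The genome build of the probe positions is not given in the sources used here, so no sequence was read by position. Normexp used median spot signals in place of the planned mean signals. The number of arrays, 1 for each strain, limits the precision.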

Additional observations from a re-analysis of the deposited data

How the results depend on the processing

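Over 35 results and 15 alternative settings, 469 values were recomputed; 431 moved by less than the noise between neighbouring single probes, a wide limit for a median, or stayed within 1.5 times for counts. A further 37 moved more, and 1 difference larger than that noise changed sign: the IRD2 repeats, from -0.41 to 0.047 when scaled to other heterochromatin. Another 21 values of opposite sign belong to differences of at most 0.095 in size. The IRD3 rise beside the borders ranged from 0.11 to 0.36 on the left and from 0.21 to 0.32 on the right, and the difference of the left flank run in IRD2 from -0.46 to -0.36. Over both f or m runs the IRD3 difference ranged from 0.18 to 0.35.

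Loess within each array gave -2.78 for the IRD2 repeats, -0.46 for the IRD3 repeats, 0.36 for the IRD1 left border, 0.11 for the IRD3 left border, and 44 and 2 probes past 2-fold in IRD2 and IRD3. The loess levels were 3.82, 3.69, 1.31 and 3.31 in the repeats and -1.19, -1.24, -1.51 and -1.54 in the gap for WT, IRD1, IRD2 and IRD3. Normexp gave 0.18 for the IRD2 left border and 1 and 3 probes past 2-fold in IRD1 and IRD2. Without f or m probes the IRD1 repeats had -0.29 over 5 probes, and the right border had no value, since its 5 probes all carry an f. A block threshold of 4 gave 0.17 for the IRD3 left border. Without centring, and with flagged spots kept, 1 probe was past 2-fold in IRD1. At 1.5-fold the counts were 6, 24 and 7 in IRD1, IRD2 and IRD3. The cause of these shifts was not tested beyond the settings' own construction. The f or m runs and the left flank run were added after seeing the data. No paired analysis was possible because each strain has 1 array, and the arrays share 1 slide and 1 scan. Signal over background did not limit any probe of the region.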
